A study of Mus musculus with 20 samples.

Results

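Oxidative phosphorylation genes of the nuclear genome were followed through the development of the mouse habenula, beside the 13 mRNAs of the mitochondrial genome. Members were taken by symbol from the table of the developmental series: the Nduf, Sdh, Uqcr, Cox4 to Cox8 and Atp5 names, without pseudogenes, with at least 200 counts over the wells that were kept. Of 90 matching rows, 6 were pseudogenes and 6 were under that floor, which left 78 members of 37994 genes in the table and of 13530 genes that reached 200 counts. They were 35 members of complex I, 4 of complex II, 8 of complex III, 14 of complex IV and 17 of complex V. The symbol rule took 2 overlapping rows for Atp5o, so the 78 rows carry 77 symbols.

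The habenula is a pair of small nuclei of the dorsal diencephalon. Single wells of 384-well plates were profiled with Cel-seq2, a method that primes on the poly-A tail and counts molecules by a short random tag, the unique molecular identifier. The developmental series held 15 plates of the Brn3a-tauLacZ line, which carries a reporter at the gene now named Pou4f1. Its embryonic plates were 2 of E11, 1 of E12 and 2 each of E13, E15 and E18, and its postnatal plates 2 each of P4, P7 and adult mice. A further 5 plates came from C57BL/6 mice at E18, of which 2 held the left habenula, 2 the right and 1 both sides. The labels name the mouse line and stage of each plate, but not the genotype at the reporter locus or the number, sex or litter of the animals. Where plates of a stage do not come from separate animals, p-values measure only the spread between plates.

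Oxidative phosphorylation moves electrons from NADH and succinate to oxygen through complexes I to IV of the inner mitochondrial membrane, and complex V, the ATP synthase, uses the proton gradient that results. Most subunits are encoded in the nucleus and imported, while a small core of complexes I, III, IV and V is encoded in mitochondrial DNA. Complex II has no mitochondrially encoded subunit and is also an enzyme of the tricarboxylic acid cycle. Neurons depend on this pathway for most of their ATP.

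Promoters of 4 members are shown because these members carry the stage and well comparisons that follow and differ in the motifs they hold. Sdha, the flavoprotein subunit of complex II, and Atp5h, a stator subunit of the ATP synthase, hold matches to the motif of NRF1, a transcription factor known to act on respiratory chain genes. Cox8a, a subunit of complex IV, and Uqcr10, a small subunit of complex III, hold none of the NRF1 motif. Each run gives the 150 bases before the RefSeq start of the gene, 5′ to 3′ on its strand, from build GRCm38.p6, with matches to the NRF1 motif (GCGCA and GCGC with 1 base of any kind between them) and to the ETS family motif (CCGGAAG), on either strand, in capitals where they lie whole within these bases. Cox8a has 2 ETS matches in the 300-base window counted next, 1 that runs across its start and 1 after it, so neither is in capitals. The regions are chr13:74350241-74350390 for Sdha, chr11:115419920-115420069 for Atp5h, chr19:7217617-7217766 for Cox8a and chr11:4704345-4704494 for Uqcr10, all on the minus strand.
Sdha: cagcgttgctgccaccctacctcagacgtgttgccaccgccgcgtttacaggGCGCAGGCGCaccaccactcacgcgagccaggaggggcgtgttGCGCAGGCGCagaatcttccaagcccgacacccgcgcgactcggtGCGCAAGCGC
Atp5h: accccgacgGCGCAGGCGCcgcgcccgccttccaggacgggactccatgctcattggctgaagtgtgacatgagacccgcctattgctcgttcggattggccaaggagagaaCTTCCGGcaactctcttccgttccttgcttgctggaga
Cox8a: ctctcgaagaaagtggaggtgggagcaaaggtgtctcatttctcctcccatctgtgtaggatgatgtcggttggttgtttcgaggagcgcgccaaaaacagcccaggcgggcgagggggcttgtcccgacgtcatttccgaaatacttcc
Uqcr10: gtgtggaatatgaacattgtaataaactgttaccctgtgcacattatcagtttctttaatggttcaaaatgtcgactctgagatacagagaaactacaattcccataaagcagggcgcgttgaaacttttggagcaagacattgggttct

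Of the 77 member symbols, 65 had a promoter in the RefSeq table, and windows of 300 bases, 250 before to 50 after the start, were searched on both strands. The NRF1 motif lay in 26.2% of the 65 members and in 5.19% of 27025 genes, and the ETS motif in 24.6% and 9.93%. The YY1 motif (AAGATGG followed directly by CGGC) was found in 6.15% of members and 0.755% of genes, the TATA box (TATAAA) in 7.69% and 15.7%, and the CCAAT box (CCAAT) in 43.1% and 41.1%. A match is a description of these windows; no binding was measured.

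Wells were kept with 1000 or more counts that were neither spike-in nor mitochondrial, 500 or more genes, and no more than 20% of counts from mitochondrial genes. This left 3729 of 5756 wells of the series and 1082 of 1920 wells of the C57BL/6 plates. Plates held 383 or 384 wells that share 1 list of 384 well barcodes, and 0 wells had a profile identical to that of another well. Adult plate 1 had the fewest counts over kept wells, 758697, and P7 plate 1 the most, 7760372. Wells were summed per plate, and the plate was the replicate. Habenula neuron markers, all 10 with counts in the series, summed to 626 to 6143 CPM (counts scaled to a plate total of 1000000) by plate, lowest on E18 plate 1. In such sums, fewer cells of a type and less RNA per cell cannot be told apart. Adult plate 1, with 56 kept wells, had 11659 CPM of oligodendrocyte lineage markers summed, against 3122 on adult plate 2. Of the 64 wells of adult plate 1 that passed the other limits, 12.5% were over the mitochondrial limit. E13 plate 2 had 4185 CPM of choroid plexus markers against 150 on E13 plate 1, and E18 plate 1 had 4833 CPM of progenitor markers against 300 on E18 plate 2. Counts of members called that rest on these 3 plates are also given without them.

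The members together made up 1.01% to 1.39% of the counts of a series plate. The 13 mitochondrial mRNAs made up 2.21% to 6.45%. For the nuclear members the 2 plates had 1.10% and 1.18% at E11, 1.26% and 1.39% at E13, 1.14% and 1.18% at E15, and 1.15% and 1.25% at E18. The E12 plate, at 1.01%, was the lowest of the series. After birth both P4 plates had 1.27%, the P7 plates 1.35% and 1.39%, and the adult plates 1.20% and 1.35%. The stages overlapped, since E13 plate 2, at 1.39%, reached the P7 level and adult plate 1, at 1.20%, lay within the embryonic range, and the range over all 15 plates was less than 1.5-fold. Without the 3 plates that stand apart, the embryonic plates had 1.01% to 1.26% and the postnatal plates 1.27% to 1.39%, a description with no test. Those left out include E13 plate 2 and adult plate 1, which had crossed this division. Of the C57BL/6 plates at E18, right plate 2 had 1.29%, above both P4 plates, and the others had 0.96% to 1.17%.

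The mitochondrial mRNAs had another course. They were 2.21% and 2.28% of counts on the E11 plates, lower than on any other series plate, and 2.96% at E12. From E13 to P7 the plates lay between 2.81% and 3.67%. The adult plates stood far apart, at 6.45% and 3.75%. The ratio of nuclear to mitochondrial share was 0.50 and 0.52 at E11, 0.19 on adult plate 1 and between 0.34 and 0.46 on the other series plates. The low mitochondrial share was not particular to E11. The C57BL/6 plates at E18 had 2.22% to 2.55%, with ratios of 0.39 to 0.51, which overlaps the E11 plates. Over the wells of a plate, the nuclear and mitochondrial shares had a Spearman correlation of 0.11 to 0.60, given as a description of wells that share a library and differ in depth.

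**Figure D1:**
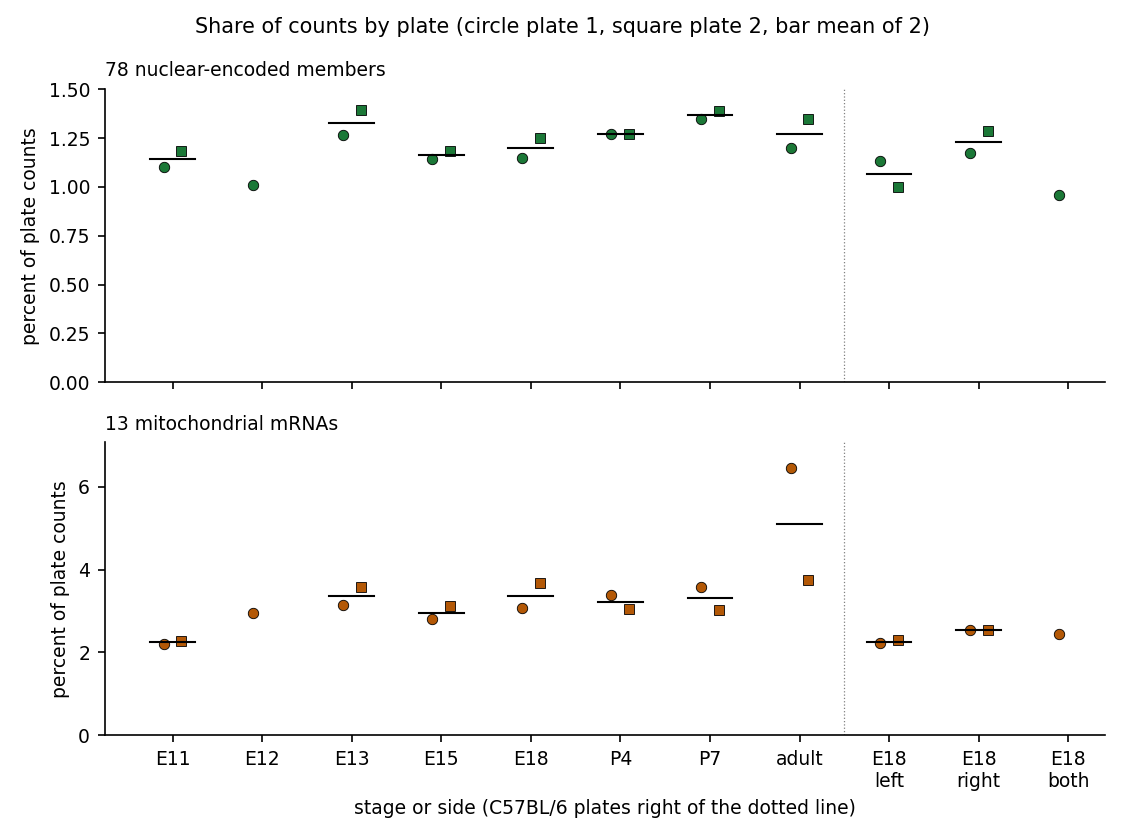
Percent of all counts in kept wells from the 78 nuclear-encoded members (upper panel) and the 13 mitochondrial mRNAs (lower panel), by plate; each point is a plate and each bar the mean of 2 plates. Nuclear shares run from 1.01% to 1.39% in the series with overlapping stages. Within the series, mitochondrial shares are lowest at E11 and highest on adult plate 1, at 6.45%. The C57BL/6 plates at E18, at 2.22% to 2.55%, overlap the E11 plates.

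Members differed in how far they varied from plate to plate. The highest plate was under 2-fold of the lowest for 43 members, 2-fold to 4-fold for 30 and at least 4-fold for 5, with a median of 1.96-fold over the members; the same was not computed over all genes. No member was listed at 0 on a series plate. Mean levels over the 15 plates ran from 5.04 to 648 CPM with a median of 129 CPM, and the 10 highest members held 33.9% of all member counts. E13 plate 2 was the highest plate for 17 members, and the E12 plate was the lowest for 21. Unspliced counts were 3.62% to 7.05% of member counts by plate, against 17.6% to 26.3% over all genes.

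Levels are CPM from the end of the transcript and were not divided by length, so they are set side by side without a ranking of genes by molecules per length. In complex I the 3 members with the most counts were Ndufc2, an accessory subunit of the membrane arm, at a mean of 273 CPM over the plates, Ndufa12, another accessory subunit, at 196 CPM, and Ndufv2, an iron-sulfur subunit of the NADH module, at 157 CPM. Complex II was led by Sdhb, its iron-sulfur subunit, at 140 CPM, and by Sdhc, a membrane anchor, at 125 CPM. Its catalytic subunit Sdha had 107 CPM. Complex III was led by Uqcrh, the hinge protein, at 192 CPM, Uqcrq at 189 CPM and Uqcrfs1, the Rieske iron-sulfur protein, at 176 CPM.

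In complex IV the leading members were Cox6a1 at 447 CPM, Cox8a at 358 CPM and Cox4i1 at 334 CPM, all nuclear subunits around the mitochondrially encoded core. The highest levels of the set belonged to complex V. Atp5b, the catalytic beta subunit, had 648 CPM, Atp5a1, the alpha subunit, 568 CPM, and Atp5g3, a gene for the membrane ring subunit c, 531 CPM. Atp5b ranged from 452 CPM on E18 plate 1 to 835 CPM on P7 plate 1.

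Several subunits are encoded by genes with tissue-specific isoforms, and in the habenula the isoform known from most tissues held nearly all counts. Cox4i1 had 20493 counts over kept wells and Cox4i2, the lung form, 14. Cox6a1 had 27578 counts and Cox6a2, the heart and muscle form, 43. Cox8a had 23279 counts, while Cox8b had 2 and Cox8c had 1. Cox7a2 had 10531 counts and Cox7a2l, which takes part in supercomplex assembly, 6003, beside 121 of Cox7a1, the muscle form. Cox7b had 10958 counts and Cox7b2 had 55.

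The pairs in which both isoforms passed the floor were likewise uneven. Cox6b1 had 15851 counts and Cox6b2, known as a testis form, 640. Of the 3 genes for subunit c, which encode the same mature protein, Atp5g3 had 33943 counts, Atp5g1 3307 and Atp5g2 244. Over the last 500 bases of its transcript, Atp5g2 matched the pseudogene Gm10175, which had 0 counts, over 496 bases at 100% identity. Atp5g1 matched 11 other genes with 19619 counts in all, so the split of reads is uncertain for both, while Atp5g3 had no match of at least 50 bases at 98% identity. Ndufa4, a subunit of complex IV despite its name, had 17116 counts and its relative Ndufa4l2, known to respond to hypoxia, 354. Among the remaining small complex V genes of this family list, Atp5j had 14641 counts, Atp5j2 10989, Atp5k 9572, Atp5e 9263 and Atp5l 986, and the pseudogene Atp5l2-ps had 10. Cox6c had 18000 counts. Atp5g2, Ndufa4l2 and Cox6b2 were the members just above the floor of 200 counts, and Cox7a1 the gene just below it.

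Counting can be shared between near-identical sequences. Over the last 500 bases of their transcripts, 13 of the 78 members matched a pseudogene over at least 50 bases at 98% identity or more, and 19 matched some other gene. Of the 10 members with the fewest counts, 5 had such a pseudogene, against 8 of the other 68. The 2 Atp5o rows overlap each other and 37 members overlap another gene, so the split of reads among them is uncertain and the rule for reads with several matches is not known here.

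The 13 mitochondrial mRNAs fell into 2 kinds. Mean levels over the 15 plates were 8225 CPM for mt-Nd4, 8163 for mt-Cytb, 6011 for mt-Co1, 5464 for mt-Nd1, 3428 for mt-Nd2 and 2061 for mt-Nd5. The other 7 were nearly empty: mt-Nd6 had 706 counts over all kept wells, mt-Nd3 205, mt-Co2 156, mt-Atp6 54, mt-Co3 17, mt-Nd4l 9 and mt-Atp8 4. All of them encode membrane subunits of complexes I, III, IV and V, and mt-Co1, mt-Co2 and mt-Co3 belong to 1 enzyme and yet lie orders apart in counts.

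The end of mt-Co2 is shown because an annotated nuclear pseudogene, Gm28661 on chr1:24614885-24615565 (mm10, minus strand), carries the identical letters. Its 681 bases matched 681 of mt-Co2, and the last 100 of them, positions 582 to 681, are the same in both.
mt-Co2 and Gm28661: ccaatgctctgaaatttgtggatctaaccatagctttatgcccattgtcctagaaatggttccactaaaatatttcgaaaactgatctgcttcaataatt
Neighbouring nuclear copies matched mt-Atp6 (Gm10925) over 678 of 678 bases, mt-Co3 (Gm28437) over 783 of 783, mt-Nd4l (Gm10222) over 294 of 294 and mt-Nd3 (Gm28438) over 344 of 345. The 5 mRNAs with these matches to within 3 bases of their end had 9 to 205 counts, and their copies 7 to 136. For mt-Nd4 the copy (Gm28439) matched 876 of 876 bases and left the last 502 bases of the mRNA without a match. For mt-Co1 the copy (Gm29216) was identical over the last 479 bases, and yet mt-Co1 had 344789 counts and the copy 38. No such copy was found for the ends of mt-Nd6 and mt-Atp8. The 7 sparse mRNAs are given as counts; mt-Nd6, mt-Nd3, mt-Co2 and mt-Atp6 are 4 of the 10 mRNAs tested between stages, and mt-Nd6 is 1 of the 7 tested between wells, so that medians over the tested mRNAs include them.

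From E11 to E18 few nuclear members were called. Successive stages were compared by quasi-likelihood tests (edgeR) in a fit of the 14 plates that have a second plate at their stage, with p-values adjusted over 17453 genes by Benjamini-Hochberg. From E11 to E13, 1 of 78 members was higher and 0 lower, where 1.45% of all genes were called, and the median log2 fold change was 0.07 over the members and 0.02 over all genes. The member was Ndufa4l2, at 0.58 and 1.02 CPM on the E11 plates and 13.1 and 93.6 CPM on the E13 plates, with 1.26 CPM at E12. Its log2 fold change was 5.83 ± 1.07 (SE) at an adjusted p of 0.0253 (edgeR). The groups did not overlap. Without E13 plate 2 the log2 fold change was 3.84 and the call was lost (adjusted p 0.237, edgeR). On that plate vascular and mural markers summed to 1700 CPM against 397 on E13 plate 1; their part in this result was not tested. DESeq2 called 2 members, and the call was lost without either E11 plate.

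From E13 to E15, 0 of 78 members were called by edgeR (3 at an unadjusted p under 0.05), with 0.0917% of all genes called and a median of -0.05. DESeq2 called 1 member. From E15 to E18, 0 were called (1 unadjusted), against 0.195% of all genes, with a median of 0.01, and DESeq2 called 0; without E18 plate 2, edgeR called 2. Without the 3 plates that stand apart, edgeR called 0 in each of these intervals. Of the 13 mitochondrial mRNAs 10 were tested, and edgeR and DESeq2 each called 0 in the 3 intervals, with medians of 0.43, -0.05 and 0.07 and 0, 0 and 1 at an unadjusted p under 0.05 in edgeR. In the first interval 9 of the 10 were higher at E13.

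From E18 to P4, 11 of 78 members were higher and 3 lower. This share, 17.9%, lay beside 19.6% of all genes called in this comparison (9.20% higher and 10.4% lower), so the members were not set apart from the background by their count. Their median log2 fold change was 0.14, against -0.07 over all genes, and 48 of 78 were above 0. With no scaling factors the median over all genes moved to -0.31, that of the members to -0.09, and the calls became 6 higher and 5 lower. The higher members were spread over the complexes: 3 of 35 in complex I, 1 of 4 in complex II, 3 of 8 in complex III, 2 of 14 in complex IV and 2 of 17 in complex V.

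Complex III gave 3 of the 11. Uqcrc2, a core subunit, had 109 and 113 CPM on the E18 plates and 197 and 199 CPM on the P4 plates. The groups were far apart, and the log2 fold change was 1.05 ± 0.19 (adjusted p 0.0057, edgeR). Uqcrfs1 had 108 and 132 CPM at E18 and 216 and 253 CPM at P4, a log2 fold change of 1.18 ± 0.24 (adjusted p 0.00798, edgeR). Uqcrq, a small subunit, rose from 168 and 156 CPM to 237 and 235 CPM (0.77 ± 0.21, adjusted p 0.0262, edgeR).

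Sdha, the subunit that oxidizes succinate, was the only called member of complex II. It had 69.8 and 64.8 CPM on the E18 plates and 125 and 131 CPM on the P4 plates, and rose by 1.14 ± 0.21 on the log2 scale (adjusted p 0.00594, edgeR). The other 3 subunits of complex II had log2 fold changes between 0.05 and 0.17, none of them called. The CPM of Sdha was below that of Sdhb and Sdhc on both E18 plates and above both on the 2 P7 and the 2 adult plates, a description that was not tested. Sdhb had 131 and 156 CPM at E18 and 121 and 145 CPM at P7, and Sdhc had 120 and 124 CPM at E18 and 132 and 122 CPM at P7.

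In complex IV, Cox8a had 274 and 306 CPM at E18 and 487 and 436 CPM at P4 (0.88 ± 0.24, adjusted p 0.0272, edgeR). Cox5a, a matrix-side subunit, had a mean of 180 CPM at E18 and 299.6 CPM at P4 (0.94 ± 0.28, adjusted p 0.0355, edgeR). In complex V, Atp5a1 had 393 and 381 CPM at E18 and 670 and 665 CPM at P4 (1.01 ± 0.23, adjusted p 0.0132, edgeR). Atp5g3 had 335 and 450 CPM at E18 and 616 and 652 CPM at P4 (0.90 ± 0.24, adjusted p 0.0272, edgeR). In complex I, Ndufs1 and Ndufv1, both core subunits of the electron input arm, had log2 fold changes of 0.73 and 0.63. For each of the members named here, both P4 plates lay above both E18 plates.

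The 3 lower members came from complexes IV and V. Cox7a2l had 196 and 150 CPM at E18 and 74.0 and 74.4 CPM at P4, a fall of 0.99 ± 0.17 on the log2 scale (adjusted p 0.0035, edgeR). Atp5h had 207 and 202 CPM at E18 and 89.2 and 97.3 CPM at P4 (-0.91 ± 0.19, adjusted p 0.00928, edgeR). The end of the Atp5h transcript matched the pseudogene Gm10250, which had 1205 counts, over 485 bases at 98.97% identity. The split of reads is thus uncertain for Atp5h, here and in the comparisons below, and its part in these differences was not tested. Atp5g2, sparse at 9.98 and 10.5 CPM at E18, had 2.20 and 3.07 CPM at P4 (-1.72 ± 0.54, adjusted p 0.0452, edgeR; -3.40 in spliced counts alone), and 47.1% of its counts were unspliced. Of 10 tested mitochondrial mRNAs, mt-Nd3 alone was called, lower at P4 (-1.99 ± 0.59, adjusted p 0.0373, edgeR) from 205 counts in all, and the 6 abundant ones had log2 fold changes between -0.02 and 0.27. DESeq2 called 2 of the 10 lower, and edgeR without the 3 plates that stand apart 3, with a median of -0.20.

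**Figure D2:**
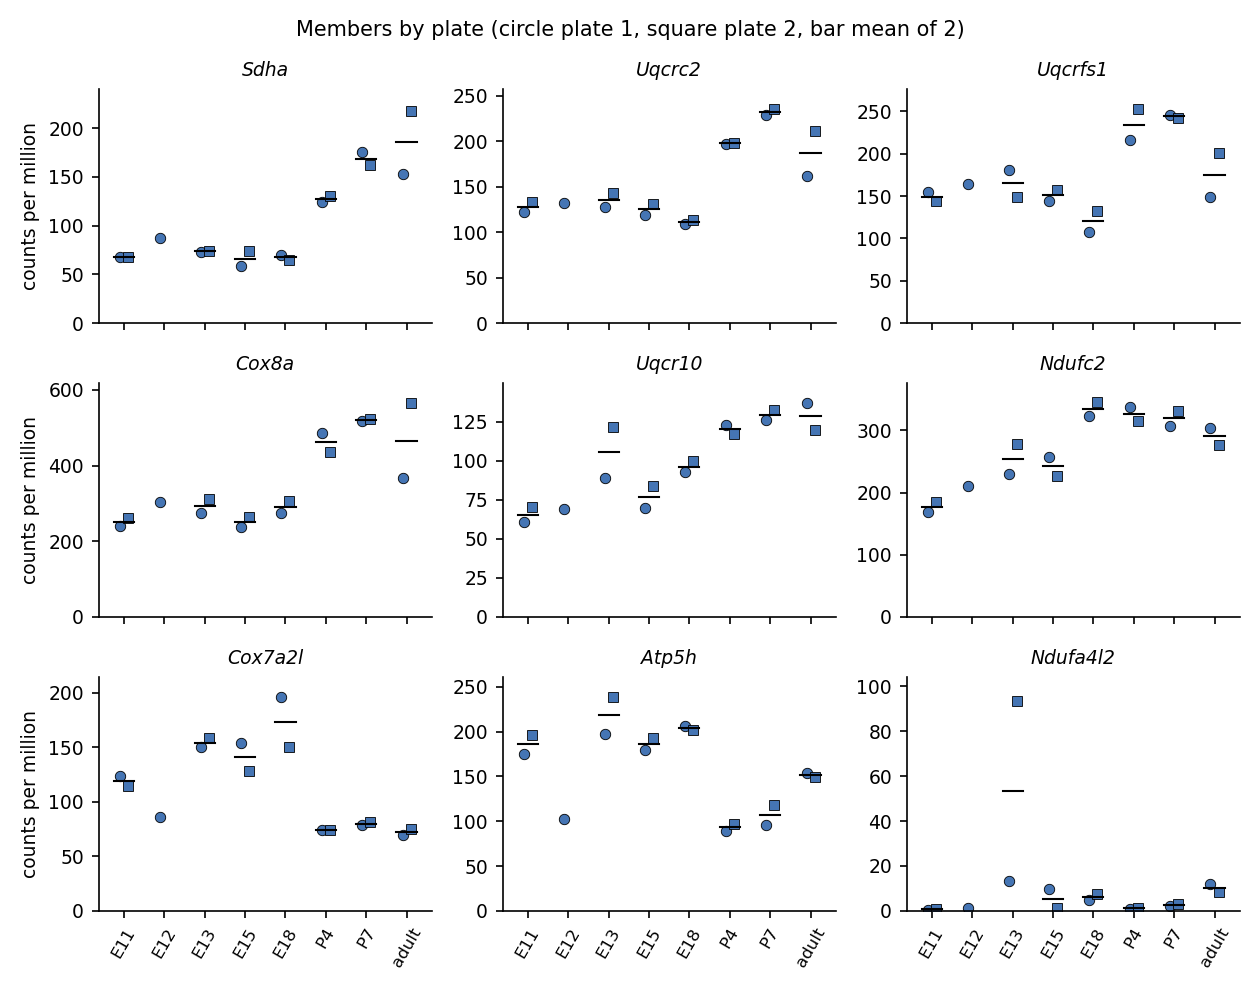
Levels (CPM) of 9 members on the 15 plates of the series by stage; each point is a plate and each bar the mean of 2 plates. Sdha, Uqcrc2, Uqcrfs1 and Cox8a are higher on the P4 and P7 plates than on any plate from E11 to E18, Cox7a2l and Atp5h are lower at P4 than at E18 with the E12 plate near the P4 level, and Ndufa4l2 is highest on E13 plate 2, at 93.6 CPM.

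The call count of this interval depends on the plates. Leaving out E18 plate 1 gave 6 calls and leaving out E18 plate 2 gave 23, while 3 were left when P4 plate 1 was dropped and 0 when P4 plate 2 was; the 4 plates fitted alone gave 0. In these fits a lone plate was assumed to vary like those of the other stages. The share of all genes called was not set beside these counts, so they are not read as a result about the members. Without E13 plate 2, E18 plate 1 and adult plate 1 together, 7 members were higher and 4 lower, where 17.4% of all genes were called, and the median was 0.02. In wells with a Pou4f1 count alone, 8 were higher and 3 lower, and the share of all genes called there is not given. Habenula neuron markers moved with the interval: 6 of 10 were called higher at P4, with summed levels of 626 and 2109 CPM on the E18 plates and 4053 and 4337 CPM on the P4 plates. Choroid plexus and ependymal markers fell from 1562 and 405 CPM to 102 and 85.9 CPM. Vascular and mural markers fell from 469 and 480 CPM to 135 and 130 CPM. The sums of the other marker lists overlapped between the 2 stages. The part of these markers in the members' changes was not tested.

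The plates carry numbers in the labels, and these numbers move with stage. The 9 plates of the first numbers (006 to 015) are those of E11, E13, E15 and E18 and adult plate 1. The 6 of the later numbers (017 to 022) are those of P4 and P7, adult plate 2 and the E12 plate. This division was set here at a gap in the numbers, which is not the only gap, and the labels name no batch by it. The labels say that 5 plates shared a sequencing run but not which ones. Stage and plate number thus cannot be told apart in the comparison of E18 with P4 or of E11 with P7. The E12 plate is the embryonic plate of the later numbers, and its values are set beside the others as a comparison chosen after the data were seen.

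On the E12 plate Atp5h and Cox7a2l were already low. Atp5h had 103 CPM there, against 175 to 239 CPM on the other 8 embryonic plates of the series and 89.2 to 118 CPM on the P4 and P7 plates. Cox7a2l had 86.2 CPM at E12, against 115 to 196 CPM on the other embryonic plates and 74.0 to 81.4 CPM at P4 and P7. The third lower member, Atp5g2, had 3.58 CPM at E12, against 3.72 to 10.5 CPM on the other embryonic plates and 2.20 to 3.07 CPM at P4 and P7. For Atp5h and Cox7a2l the E12 plate lay near the postnatal plates of its own number series. The C57BL/6 plates at E18 had 206 to 270 CPM of Atp5h, and 130 to 142 CPM of Cox7a2l on the left and right plates, while the plate of both sides had 57.7 CPM of Cox7a2l, below the P4 and P7 plates. The 2 sets have separate tables, and their levels may not be comparable. Cox7c had 2959 counts in 3729 kept wells of the series and 8779 in 1082 kept wells of the C57BL/6 plates.

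The higher members were below their P4 and P7 levels on the E12 plate, by amounts that differed. Sdha had 87.6 CPM at E12, above the 58.1 to 74.3 CPM of the other embryonic plates and below the 125 to 176 CPM of the P4 and P7 plates. Uqcrc2 had 133 CPM at E12, within the 109 to 143 CPM of the other embryonic plates, and 197 to 236 CPM at P4 and P7. Cox8a had 303 CPM at E12, within the 238 to 312 CPM of those plates, and 436 to 522 CPM at P4 and P7. Ndufv1 had 95.2 CPM at E12, above the 62.1 to 85.8 CPM of the other embryonic plates and near the 97.9 CPM of P4 plate 1. Atp5a1, Atp5g3, Uqcrq, Cox5a and Ndufs1 at E12 lay within the range of the other embryonic plates. Uqcrfs1 had 164 CPM at E12 and 216 to 253 CPM at P4 and P7. On the C57BL/6 E18 plates it had 175 to 268 CPM, which overlaps the postnatal values, though levels may not be comparable between the sets.

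Within the later numbers, from E12 to P4, 68 of 78 members were higher with a median of 0.38, against 0.04 over all genes. No member passed edgeR's test over 20324 genes (0 called, 14 at an unadjusted p under 0.05, all higher), where 5.14% of genes were called, and DESeq2 called 8. From E12 to P7 the median was 0.50, and 1 member was called, where 6.95% of genes were: Sdhd, a membrane anchor of complex II, at 35.8 CPM on the E12 plate and 62.5 and 66.3 CPM on the P7 plates (0.90 ± 0.24, adjusted p 0.0423, edgeR). DESeq2 called 14 members there, and edgeR with no scaling factors 6. Without the 3 plates that stand apart, edgeR called 20 members higher and 0 lower from E12 to P4, where 21.8% of all genes were called, and 32 higher and 0 lower from E12 to P7, where 26.3% were. Markers moved with these intervals too. Habenula neuron markers summed to 1570 CPM on the E12 plate, 4053 and 4337 CPM at P4 and 4986 and 5129 CPM at P7, neuron markers to 12493 CPM, 7167 and 7124 CPM and 6515 and 6723 CPM, progenitor markers to 842 CPM, 456 and 425 CPM and 335 and 299 CPM, and oligodendrocyte lineage markers to 60.2 CPM, 116 and 86.6 CPM and 223 and 186 CPM. Their part in the members' changes was not tested. The lone E12 plate is assumed in these fits to vary like the plates of other stages.

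Against its embryonic neighbours the E12 plate was low. From E11 to E12, 57 of 78 members were lower with a median of -0.24, and 0 were called by edgeR (3 unadjusted), with 0.0295% of genes called; DESeq2 called 1. From E12 to E13, 61 of 78 were higher with a median of 0.24, and 0 were called (13 unadjusted), with 0.157% of genes called; DESeq2 called 8, and edgeR without the 3 plates that stand apart 1, Cox6c, with 0.837% of genes called. With the number series as a term, 0 members were called from E18 to P4, and 2 higher and 2 lower from E11 to P7. The share of all genes called in that fit is not given. The term rests on the 2 adult plates, which kept 56 and 342 wells and had 11659 and 3122 CPM of oligodendrocyte lineage markers. Plate number and cell mixture thus cannot be told apart in it. In that fit the log2 fold changes from E18 to P4 were 0.64 for Sdha, 0.68 for Uqcrc2, 0.76 for Uqcrfs1, 0.48 for Atp5a1, 0.48 for Uqcrq and 0.26 for Cox8a, and from E11 to P7 they were 0.86 for Sdha, 0.54 for Uqcrc2, 0.48 for Cox8a and 0.45 for Uqcrq, none of them called.

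Over the longer interval from E11 to P7, 14 members were higher and 2 lower, 20.5% of 78, against 28.6% of all genes (15.4% higher and 13.2% lower). The median was 0.25, against 0.03 over all genes, and 54 of 78 were above 0. Markers moved with this interval: habenula neuron markers summed to 1370 and 1371 CPM on the E11 plates and 4986 and 5129 CPM on the P7 plates, neuron markers to 14196 and 14305 CPM and to 6515 and 6723 CPM, and oligodendrocyte lineage markers to 47.9 and 49.0 CPM and to 223 and 186 CPM. Their part in the members' changes was not tested. Complex III stood at a median of 0.67 with 4 of 8 members higher and 8 of 8 above 0. In complex I 6 of 35 were higher, in complex II 1 of 4, in complex IV 1 of 14 and in complex V 2 of 17.

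Sdha had the smallest adjusted p of the members from E11 to P7. It stood at 67.8 and 68.0 CPM on the E11 plates and 176 and 162 CPM on the P7 plates (1.36 ± 0.21, adjusted p 0.000868, edgeR). Uqcr10, a small subunit of complex III, had 60.5 and 70.3 CPM at E11 and 126 and 132 CPM at P7 (1.03 ± 0.20, adjusted p 0.00352, edgeR), and its E18 plates were already at 93.0 and 99.5 CPM. Ndufc2 had 169 and 185 CPM at E11 and 308 and 331 CPM at P7 (0.90 ± 0.19, adjusted p 0.00557, edgeR). Its E18 plates, at 324 and 345 CPM, were at the P7 level, so that its course differed from that of Sdha, which stayed under 75 CPM through E18 on the plates of the first numbers.

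Cox8a had 239 and 262 CPM at E11 and 517 and 522 CPM at P7 (1.10 ± 0.24, adjusted p 0.00637, edgeR). Atp5c1, the gamma subunit that turns within the ATP synthase, had 180 and 175 CPM at E11 and 304 and 303 CPM at P7 (0.83 ± 0.19, adjusted p 0.00837, edgeR). Uqcrc2, Uqcrq, Uqcrfs1, Ndufv1, Ndufa10, Ndufs1, Ndufa12, Ndufa13 and Atp5s were the other higher members, with log2 fold changes of 0.58 to 1.08. Atp5h (-0.75 ± 0.19, adjusted p 0.0128, edgeR) and Cox7a2l (-0.53 ± 0.16, adjusted p 0.0326, edgeR) were lower. The call count was 1 without E11 plate 1, 5 without E11 plate 2, and 5 without either P7 plate; it was 42 when only these 4 plates were fitted and 8 with no filter on low counts.

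**Figure D3:**
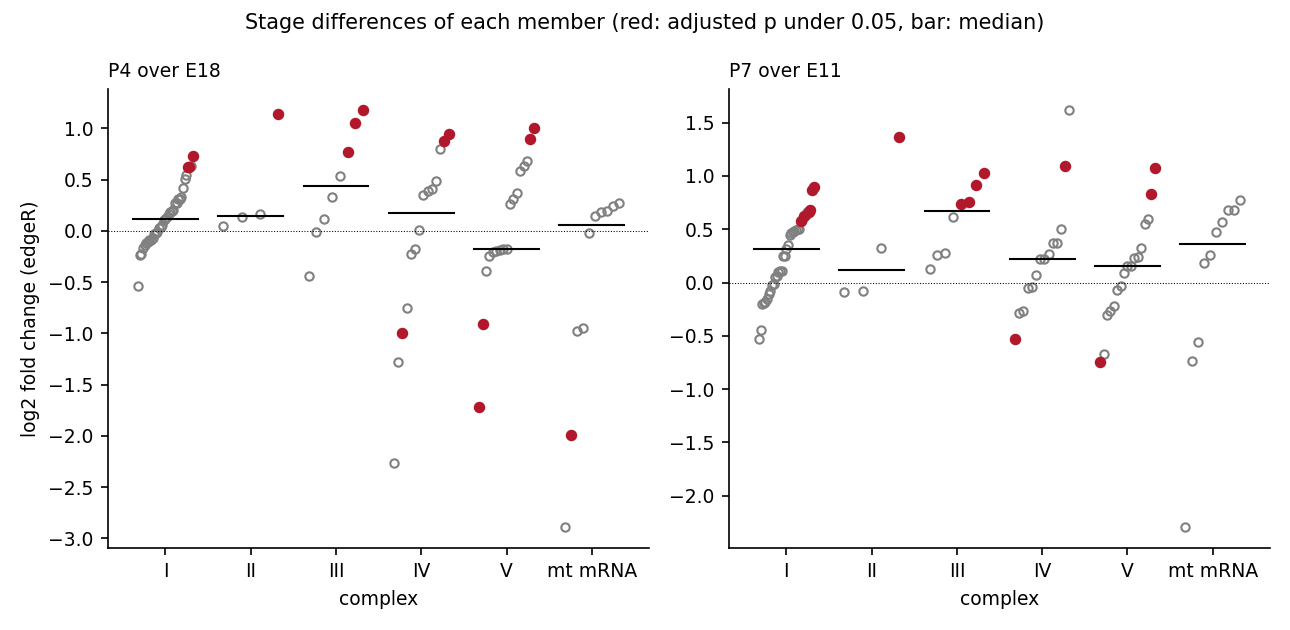
Log2 fold change of each tested member by complex, and of the 10 tested mitochondrial mRNAs, from E18 to P4 (left) and from E11 to P7 (right), on axes of different range; red points have an adjusted p under 0.05 in edgeR and bars are medians. Most members lie within 1 log2 unit of 0, complex III has the highest median from E11 to P7, at 0.67, and most members are not called.

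After P4 no member was called by edgeR, which does not show that the members were stable. From P4 to P7, 0 of 78 were called by edgeR and 0 had an unadjusted p under 0.05, where 1 of 17453 genes (0.00573%) was called. The median was 0.09 with 54 of 78 above 0, DESeq2 called 0, and the 4 plates fitted alone gave 2 members higher. From P7 to the adult 0 were called by edgeR (1 higher and 5 lower unadjusted), against 3.58% of all genes. There 55 of 78 were lower with a median of -0.15, and DESeq2 called 1 higher and 2 lower. Without the 3 plates that stand apart, 52 of 78 were lower with a median of -0.12 and 0 were called (8 unadjusted), against 9.92% of all genes. The 10 tested mitochondrial mRNAs were all higher in the adult, with a median of 1.00 and 0 calls by edgeR (5 unadjusted), while DESeq2 called 2. Without adult plate 1 the median was 0.43, with 0 calls and 0 at an unadjusted p under 0.05. The mRNA mt-Nd5 had 1878 and 1568 CPM at P7, 5706 CPM on adult plate 1 and 3137 CPM on adult plate 2, and mt-Co1 had 7152 and 5197 CPM at P7 and 8795 and 6374 CPM in the adult. The 2 adult plates differ in oligodendrocyte lineage markers, as given above, and the part of these cells was not tested.

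Other genes of energy metabolism moved in the same comparison of E18 with P4, and some by more. Of 23 tested genes of the tricarboxylic acid cycle and pyruvate entry, 12 were higher and 1 lower, with a median of 0.90, where 9.20% of all genes were higher and 10.4% lower. They were led by Pdha1, a subunit of pyruvate dehydrogenase, at 77.4 and 67.1 CPM on the E18 plates and 225 and 230.1 CPM on the P4 plates (1.88 ± 0.19, adjusted p 0.000642, edgeR), and Mdh1, the cytosolic malate dehydrogenase of the malate-aspartate shuttle, at 200 and 230 CPM and 578 and 610 CPM (1.68 ± 0.22, adjusted p 0.00136, edgeR). Without the 3 plates that stand apart this list had 11 higher and 1 lower. It holds genes of pyruvate entry and of the malate-aspartate shuttle as well, and is named below by the tricarboxylic acid cycle alone. Idh2, a mitochondrial NADP-dependent enzyme, was lower (-1.20 ± 0.26). Of 15 carriers of adenine nucleotides, phosphate and calcium, 7 were higher and 0 lower, with a median of 0.64, Vdac1, the outer membrane channel, among them (1.25 ± 0.22).

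Of 12 subunits and partners of the chain outside the symbol rule, 4 were higher and 1 lower, beside the same 9.20% and 10.4% of all genes. Cycs, the cytochrome c that links complexes III and IV, had 20.0 and 23.4 CPM at E18 and 65.3 and 64.6 CPM at P4 (1.82 ± 0.22, adjusted p 0.00106, edgeR). Higd1a, which binds complex IV, had 38.7 and 27.9 CPM and 86.4 and 98.9 CPM (1.70 ± 0.22, adjusted p 0.00149, edgeR). Of 48 assembly factors 8 were higher and 3 lower with a median of 0.15, near that of the subunits they assemble, and Cox15, needed for the heme of complex IV, was the assembly factor with the smallest adjusted p (1.48 ± 0.22). Of 19 glycolysis genes 7 were higher and 2 lower, with Eno2, the neuronal enolase, at 11.2 and 24.9 CPM and 179 and 164 CPM (3.52 ± 0.40, adjusted p 0.00074, edgeR). With no scaling factors the medians were 0.70 for the tricarboxylic acid cycle, 0.40 for carriers, 0.06 for partners and -0.08 for assembly factors. Of 76 mitochondrial ribosomal protein genes 1 was higher and 1 lower, of 19 genes that maintain and express the mitochondrial genome 3 were higher and 1 lower, and of 11 transcriptional regulators 1 was higher. Without the 3 plates that stand apart, carriers had 7 higher and 0 lower, partners 3 and 1, assembly factors 8 and 3, glycolysis 8 and 1, mitochondrial ribosomal protein genes 1 and 5, genes of the mitochondrial genome 2 and 2, and regulators 1 and 0.

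From E11 to P7, where 15.4% of all genes were higher and 13.2% lower, the same lists gave 12 of 23 higher and 1 lower for the tricarboxylic acid cycle (median 0.67), 7 of 19 higher for glycolysis (0.31), 4 higher and 2 lower of 15 carriers (0.50), 3 of 12 higher for partners (0.27), 7 higher and 4 lower of 48 assembly factors (0.22), and 3 higher and 7 lower of 76 mitochondrial ribosomal protein genes (-0.24). The 2 intervals share neither plates nor controls, but both set plates of the first numbers against later ones. On the E12 plate Pdha1 had 96.7 CPM, Mdh1 215 CPM and Cycs 27.2 CPM, near the embryonic plates and below those of P4.

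Left and right habenula at E18 did not differ in any member by test. On the C57BL/6 plates the members' share was 1.13% and 1.00% on the left, 1.17% and 1.29% on the right and 0.96% on the plate of both sides; left plate 2 kept 54 wells. Of 77 tested members 68 were higher on the right, with a median of 0.17 against 0.01 over all genes, but 0 were called by edgeR, 0 had an unadjusted p under 0.05, and DESeq2 called 0. Of all 15489 genes tested, 0 were called (0% of the background). Erythroid markers, 7 of 10 of which had a count in the wells with Pou4f1 of each left plate, summed to 19049 and 17220 CPM on the left and 3412 and 267 CPM on the right, and their part was not tested. The plate of both sides stood apart, with 123 CPM of Cox8a against 282 to 379, 57.7 CPM of Cox7a2l against 130 to 142, and 42.1 CPM of Uqcr10 against 67.6 to 92.3.

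Pou4f1 is a transcription factor of habenula neurons, so wells with and without a Pou4f1 count were summed apart on each plate and compared within plates, with the plate as a block. Before birth few members were called between these wells. Of 74 tested members, 3 were called lower in wells with Pou4f1 and 0 higher, where 17.8% of all genes were called (8.82% lower). The median was -0.10, against -0.002 over all genes, with 57 of 74 below 0, and it was 0.05 with no filter on low counts. On 8 of the 9 plates from E11 to E18 the summed share was lower in wells with Pou4f1, as at E11 with 1.09% against 1.30% and 1.18% against 1.26%, and at E13 with 1.23% against 1.44% and 1.31% against 1.51%. E15 plate 1 was the exception, at 1.15% against 1.08%.

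The 3 members were Uqcrh of complex III and Atp5j and Atp5e of complex V, small subunits of their complexes. Atp5j had 272 ± 54.2 CPM (SD, 9 plates) in wells with Pou4f1 and 359 ± 65.7 CPM in the others, lower on 9 of 9 plates (-0.38 ± 0.10, adjusted p 0.0214, edgeR). Atp5e had 175 ± 25.7 and 234 ± 31.6 CPM (-0.38 ± 0.12, adjusted p 0.0349, edgeR), and Uqcrh had 182 ± 26.9 and 234 ± 35.5 CPM (-0.33 ± 0.10, adjusted p 0.0352, edgeR), both likewise on 9 of 9 plates. These calls are fragile. Leaving out single plates gave 0 to 5 calls: 1 without E11 plate 1, E13 plate 2 or E15 plate 2, 0 without E11 plate 2, E12 plate 1 or E13 plate 1, and 5 without E18 plate 2. With no filter on low counts the log2 differences of Atp5j, Atp5e and Uqcrh were -0.21, -0.22 and -0.17, none of them called. There were 0 among wells of at least 3000 counts and 0 among wells of 5000 to 20000 counts, both without E18 plate 2, and 2 without the 3 plates that stand apart.

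After birth more members were called, in the other direction. On 6 of 6 plates from P4 to the adult the members' summed share was higher in wells with Pou4f1: 1.28% against 0.92% and 1.28% against 0.98% at P4, 1.36% against 0.99% and 1.39% against 1.24% at P7, and 1.30% against 0.92% and 1.47% against 0.87% in the adult. Of 76 tested members 29 were higher and 0 lower, 38.2%, where 34.9% of all genes were called and 17.0% were higher. The median was 0.43, against -0.01 over all genes, and 71 of 76 were above 0. On each of the 6 plates 34 were higher, a count that was not made over all genes. Calls came from every complex, with 11 of 35 in complex I, 1 of 4 in complex II, 3 of 8 in complex III, 7 of 13 in complex IV and 7 of 16 in complex V.

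Cox5a of complex IV had the smallest adjusted p. In wells with Pou4f1 it had 285 to 307 CPM on the 6 plates with a mean of 297 ± 8.13 (SD), and in the other wells 142 to 214 CPM with a mean of 169 ± 26.2. The ranges did not overlap, and the log2 difference was 0.79 ± 0.15 (adjusted p 0.00171, edgeR). Uqcrfs1, the Rieske protein of complex III, had 228 ± 32.5 CPM against 112 ± 59.0 (1.06 ± 0.24, adjusted p 0.00411, edgeR). Its other wells ranged from 57.4 CPM on P4 plate 1 to 227 CPM on P7 plate 2, so that plate overlapped the Pou4f1 wells.

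In complex V, Atp5b had 750 ± 132 CPM (SD, 6 plates) in wells with Pou4f1 and 458 ± 78.8 in the others (0.67 ± 0.15, adjusted p 0.00433, edgeR). The 2 rows of Atp5o, the stalk subunit OSCP, gave 0.77 ± 0.17 and 0.76 ± 0.18. In complex I the leading members were Ndufa11 (0.69), Ndufa10 (0.74) and Ndufs6 (0.84), accessory subunits, with Ndufa11 at 117 ± 8.28 against 70.6 ± 4.59 CPM. In complex II Sdhb had 129 ± 19.2 against 78.2 ± 16.9 CPM (0.68 ± 0.19, adjusted p 0.0138, edgeR). Each of these was higher on 6 of 6 plates. With no filter on low counts the differences were 1.03 for Atp5b and 1.04 for Ndufa11. Without single plates 12 to 41 members were called, with 12 without adult plate 2, 17 without either P4 plate and 19 without P7 plate 1, and without adult plate 1, the only one of the 3 plates that stand apart in this comparison, 40 of 77 were higher and 1 lower, where 35.8% of all genes were called; the median was then 0.55.

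The abundant mitochondrial mRNAs did not share this direction. Their summed share after birth was lower in wells with Pou4f1 on 6 of 6 plates, as at P4 with 3.34% against 4.48% and 3.01% against 4.45%. Of 7 tested mRNAs 7 were lower with a median of -0.43, and 0 were called by edgeR (3 unadjusted), while DESeq2 called 3 lower. Without adult plate 1 the median was -0.26. The nearest to the threshold was mt-Cytb, at 9040 ± 2000 CPM (SD, 6 plates) in wells with Pou4f1 and 12257 ± 3013 in the others, lower on 6 of 6 plates (-0.47 ± 0.17, adjusted p 0.051, edgeR). Before birth the summed share was also lower in wells with Pou4f1 on each series plate but E15 plate 1, at 2.84% against 2.59%. The median of the tested mRNAs before birth was -0.11, with 0 calls and 0 at an unadjusted p under 0.05 in edgeR and 2 lower in DESeq2.

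**Figure D4:**
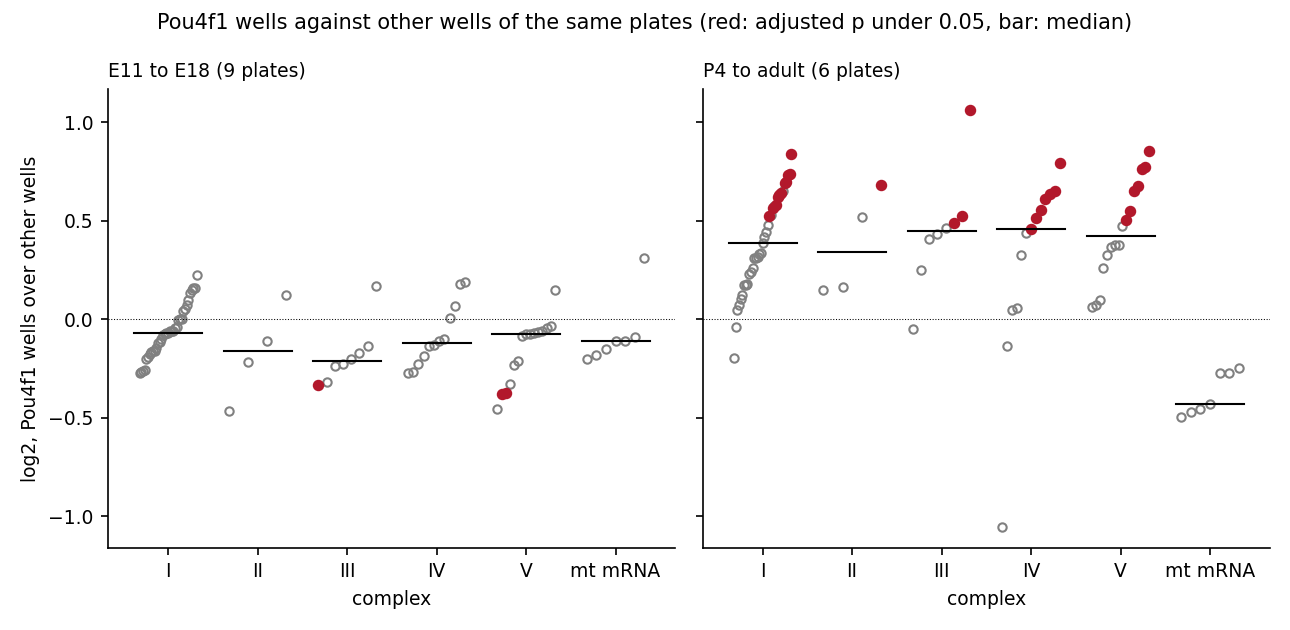
Log2 difference between wells with and without a Pou4f1 count of the same plates for each tested member by complex, and for 7 mitochondrial mRNAs, on 9 plates from E11 to E18 (left) and 6 plates from P4 to the adult (right); red points have an adjusted p under 0.05 in edgeR and bars are medians. The medians of complexes I to V lie below 0 in the left panel and between 0.34 and 0.46 in the right panel, where the mitochondrial mRNAs lie below 0.

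The difference between the periods was tested itself, in a fit of all 15 plates with an interaction of Pou4f1 and period. The Pou4f1 difference was larger after birth for 39 of 77 members and smaller for 0, 50.6%, where 11.3% of all genes were called, 4.94% in this direction and 6.36% in the other. The median of the members was 0.74, against 0.11 over all genes, and 76 of 77 were above 0. With no scaling factors the all-gene median was -0.02, the members' median 0.62, and 26 were called. The calls were 12 of 35 in complex I, 2 of 4 in complex II, 7 of 8 in complex III, 8 of 14 in complex IV and 10 of 16 in complex V. Of the 39 members, 25 were among those higher after birth and 2 among those lower before it.

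Cox8a had the smallest adjusted p of the members in that test (1.05 ± 0.19, adjusted p 0.00174, edgeR). In wells with Pou4f1 it had 238 to 302 CPM on the plates from E11 to E18 and 386 to 623 CPM from P4 to the adult, while in the other wells it had 243 to 368 and 199 to 485 CPM. It was lower in wells with Pou4f1 on 9 of 9 plates before birth and higher on 6 of 6 after, though its test before birth was not passed (-0.23 ± 0.10, adjusted p 0.137, edgeR). Uqcrh, called lower before birth, had 127 to 206 CPM in wells with Pou4f1 and 170 to 303 CPM in others before birth, and 178 to 235 and 134 to 199 CPM after (interaction 0.76 ± 0.17, adjusted p 0.0078, edgeR). Atp5b differed between the periods by 0.91 ± 0.18, Atp5j by 0.65 ± 0.17, Cox4i1 by 0.80 ± 0.19 and Uqcrfs1 by 1.07 ± 0.25. Of 7 mitochondrial mRNAs 0 were called by edgeR, 0 had an unadjusted p under 0.05, and the median was -0.10; DESeq2 was not run for this difference.

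**Figure D5:**
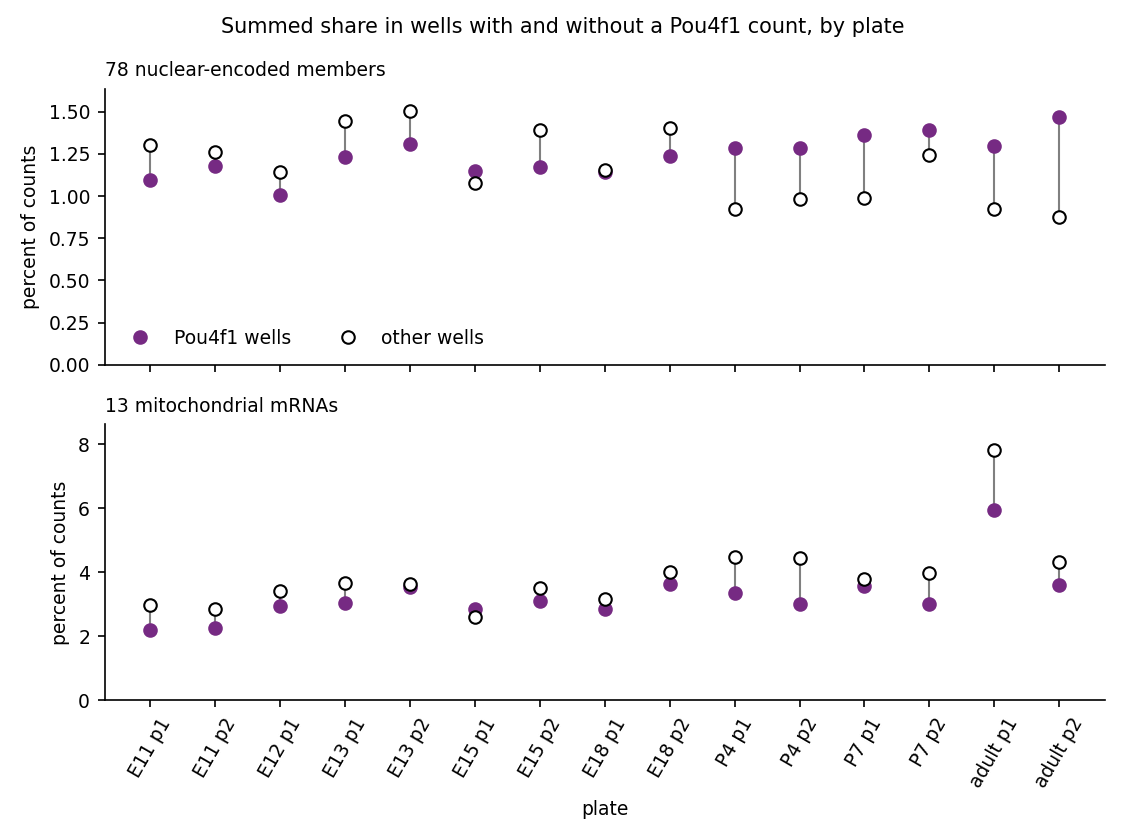
Percent of counts from the 78 members (upper panel) and the 13 mitochondrial mRNAs (lower panel) in wells with a Pou4f1 count (filled) and without (open), for each of the 15 series plates. For the members the filled points lie below the open ones on 8 of 9 plates from E11 to E18 and above them on 6 of 6 plates from P4 to the adult.

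On 2 plates the label number and the period part ways. The E12 plate, of the later numbers, had 1.00% in wells with Pou4f1 against 1.14%, like most embryonic plates. Adult plate 1, of the first numbers, had 1.30% against 0.92%, like the other postnatal plates. It kept 56 wells, 35 of them without Pou4f1, and is 1 of the 3 plates that stand apart. These are values of single plates, and the part of plate number in the difference was not tested. The count of members called for the difference was 21 to 40 when single plates were left out, with 21 without adult plate 2, and 26 without the 3 plates that stand apart. It was 24 with no filter on low counts.

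The C57BL/6 plates at E18 did not follow the embryonic plates of the series. There the members' share was higher in wells with Pou4f1 on 5 of 5 plates: 1.18% against 0.93% and 1.03% against 0.82% on the left, 1.19% against 1.06% and 1.31% against 1.15% on the right, and 1.01% against 0.90% on the plate of both sides. On the series plates of the same stage it was 1.14% against 1.15% and 1.24% against 1.41%. The share of the mitochondrial mRNAs was also higher in wells with Pou4f1 on these C57BL/6 plates, unlike on the postnatal plates. It was 2.26% against 2.06% and 2.33% against 2.04% on the left. On the right it was 2.59% against 2.37% and 2.58% against 2.29%, and on the plate of both sides 2.47% against 2.43%. Erythroid markers summed to 2328 CPM in wells with Pou4f1 and 99117 CPM in the others on left plate 1, 19804 and 342 CPM on left plate 2, 3903 and 549 CPM on right plate 1, 278 and 210.4 CPM on right plate 2, and 24.3 and 29.3 CPM on the plate of both sides. Their part in the members' difference was not tested. No test was run on these 5 plates, and line, dissection and set cannot be told apart.

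What the wells without Pou4f1 hold changed with age. After birth, progenitor and radial glia markers summed to 870 to 6696 CPM in them and to 128 to 274 CPM in wells with Pou4f1, astrocyte markers to 1737 to 4806 and 276 to 1030 CPM, and oligodendrocyte lineage markers to 1364 to 29496 and 35.1 to 5165 CPM. Vascular and mural markers came to 450.1 to 8436 CPM in wells without and 93.9 to 121 CPM in wells with Pou4f1, with 8436 against 102 CPM on P7 plate 1, choroid plexus and ependymal markers to 133 to 629 and 67.5 to 95.4 CPM, and microglia markers to 39.5 to 1959.5 and 20.7 to 46.0 CPM. Neuron markers, of which at least 9 of 10 were detected in each sum, came to 1262 to 3029 CPM in wells without and 6085 to 7330 CPM in wells with Pou4f1. Before birth, wells without Pou4f1 had 1807 to 9284 CPM of neuron markers, 974 to 6095 of progenitor markers and 41.9 to 520 of oligodendrocyte lineage markers, the last with 3 to 9 of 10 markers detected. There vascular and mural markers came to 27.5 to 4868 CPM in wells without and 14.6 to 1364 CPM in wells with Pou4f1, higher without it on 9 of 9 plates, and choroid plexus and ependymal markers to 151 to 6196 and 77.9 to 2724 CPM, highest in both on E13 plate 2. The part of these cell types in the members' difference was not tested, apart from a sum over wells without myelin transcripts. In it 33 members were called after birth, all higher, on 5 plates without adult plate 1, and the share of all genes called is not given. Over all wells of those 5 plates 41 members were called, where 35.8% of all genes were.

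Depth differed between the 2 kinds of wells too. Median counts per well were higher with Pou4f1 on all 15 series plates, with the largest ratio on P4 plate 2, at 21845 against 4183, and the smallest on E13 plate 2, at 14730 against 11600. Among wells of 5000 to 20000 counts, 21 members were called after birth in place of 29, and the share of all genes called among these wells is not given. A well of low depth can also miss a Pou4f1 count that its cell holds, so the wells without Pou4f1 are not a pure class.

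Genes of related pathways were compared between the wells after birth, where 34.9% of all genes were called and 17.0% were higher. Of 23 genes in the list of the tricarboxylic acid cycle, pyruvate entry and malate-aspartate shuttle, 10 were higher and 2 lower. Mdh1 (1.25 ± 0.18) and Got2 (1.17 ± 0.17), enzymes of the shuttle, were higher. Suclg2 (-2.20 ± 0.32), the GTP-forming succinyl-CoA ligase subunit, was lower. Glycolysis genes were 8 of 16 higher and 3 lower, with Ldhb (1.16 ± 0.16) higher and Ldha (-1.12 ± 0.28), the other lactate dehydrogenase subunit, lower. Among carriers 8 of 14 were higher and 2 lower, with Slc25a22, a glutamate carrier, higher (1.60 ± 0.20) and Ucp2, an uncoupling protein, lower (-3.29 ± 0.27). Cycs (1.21 ± 0.28) and Higd1a (1.08 ± 0.20) were among 5 of 12 partners that were higher, and 5 of 40 assembly factors and 4 of 73 mitochondrial ribosomal protein genes were higher too, beside 1 ribosomal protein gene that was lower. Without adult plate 1, where 35.8% of all genes were called, 14 genes of the tricarboxylic acid cycle were higher and 2 lower, 9 and 4 of glycolysis, 9 and 2 carriers, 6 and 0 partners, 5 and 0 assembly factors and 7 and 1 mitochondrial ribosomal protein genes.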

How the data were processed

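Per the labels' protocols, single cells were sorted into 384-well plates and sequenced by Cel-seq2 with unique molecular identifiers (UMIs) of 6 bases. Per the submitters' processing notes, reads were trimmed with Trim Galore and mapped to mm10 with STAR 2.5.3a. For the counting program, nothing is stated in the labels or notes used here. Tables of expected counts per gene and well were deposited, which hold UMI numbers corrected for collisions among 4096 possible UMIs, for total, spliced and unspliced molecules. Inverting that correction gave whole numbers for 100% of the values in each table, to a tolerance of 1e-06. The 92 spike-ins were left out.

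Here, kept wells were summed per plate and rounded, where the planned design had assumed whole counts, and the plate was the replicate. Levels are counts scaled to a plate total of 1000000 (CPM). Tests used edgeR 4.0.16 (filterByExpr, TMM scaling, quasi-likelihood F-test) in R 4.3.3 with Benjamini-Hochberg adjustment over all genes tested and a threshold of 0.05. Stages were fitted together on 14 plates, left and right on 4, and wells with and without Pou4f1 with the plate as a block. The single E12 plate entered a second fit of 15 plates, added after the data were seen, as were the difference between periods and the term for label numbers. DESeq2 1.42.0 and the other alternatives are covered in the closing section. Replicate numbers were not taken to pair plates in the main fits. Deviations of same-numbered plates had correlations of -0.31 to 0.40, and of 0.26 for left and right. These values cannot settle whether such plates share animals, which the labels do not name.

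The fits were tested on simulated data. Transcript ends were compared with blastn 2.17.0, and promoters came from RefSeq. Named genes are the 13 mitochondrial mRNAs, the 3 highest members of each complex, up to 8 members called with the smallest adjusted p in each direction, the isoform families, the members nearest the floor, and the 3 called with the smallest adjusted p in each related list; members named beyond these were chosen after their values were seen. An item this rule covers is not reported here. Members, gene lists and tests were chosen with earlier results of these data known.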

Additional observations from a re-analysis of the deposited data

Results flagged for a closer look

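The difference in member levels between wells with and without Pou4f1 was not the same before and after birth. For 39 of 77 tested members it was larger on the P4 to adult plates than on the E11 to E18 plates by edgeR's test of that difference, and for 0 it was smaller. For the members' summed share, the 5 C57BL/6 plates at E18 had the direction of the postnatal plates, without a test. For the mitochondrial mRNAs they did not, as that share was higher in wells with Pou4f1 on each of them.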

How the results depend on the processing

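Counts of members called moved as follows, with values outside 1.5 times the main count given. From E11 to E13 (1 in the main fit), DESeq2 gave 2, the 4 plates alone 0, the fit without the 3 plates that stand apart 0, and leaving out single plates 0 to 1. From E13 to E15 (0), DESeq2 gave 1 and no filter on low counts 2; from E15 to E18 (0), no filter gave 1 and single plates left out 0 to 2. From E18 to P4 (14), the 4 plates alone gave 0, the number series as a term 0 and single plates left out 0 to 23. From P4 to P7 (0), the 4 plates alone gave 2, and from P7 to the adult (0), DESeq2 gave 3 and single plates left out 0 to 1. From E11 to P7 (16), no filter gave 8, the 4 plates alone 42, the number series as a term 4 and single plates left out 1 to 5. From E12, DESeq2 gave 8 for P4 (0), 14 for P7 (1), 1 for E11 (0) and 8 for E13 (0), no scaling factors gave 6 for P7, and the fit without the 3 plates that stand apart gave 20 for P4, 32 for P7 and 1 for E13.

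Between wells before birth (3), DESeq2 gave 6, no scaling factors 5, no filter 1, wells of at least 3000 counts 0, wells of 5000 to 20000 counts 0, a gate of 2 Pou4f1 counts 5 and single plates left out 0 to 5. After birth (29), no filter gave 51, wells without myelin transcripts 33 against 41 on the same 5 plates, and single plates left out 12 to 41. For the difference between the periods (39), no filter gave 24 and single plates left out 21 to 40. Left against right stayed at 0 under its 14 alternatives. Where no cause is given by fewer plates or genes, the cause was not tested. For most of these alternatives the share of all genes called is not given, so a change in a count is not read as a result about the members.

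With the replicate number as a block the stage counts were 1, 0, 0, 12, 0, 0 and 16 in the order above, and 0 for left against right. Whether same-numbered plates share more than a number is not known here. With no scaling factors the median over all genes shifted to 0.17 from E11 to E13, -0.10 from E13 to E15, 0.20 from E15 to E18, 0.09 from P7 to the adult and 0.23 from E12 to E13. Floors of 100 and 500 counts would give 79 and 76 members in place of 78. Over 42 pairs of a named member and a contrast, 747 alternatives kept the call in 616, lost it with the same direction in 131 and changed direction in 0. Adult plate 1 was left out of the sums without myelin transcripts, and E18 plate 2 of those over 3000 and of 5000 to 20000 counts, for want of 10 wells of a kind. DESeq2 was not run for the difference between periods. Depth limits members of few counts: Atp5g2 had 244 counts over all kept wells.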
